A study of Homo sapiens with 4 samples.

Results

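The transcripts of 9 genes of androgen disposal and steroid metabolism were compared between LNCaP cells with and without overexpressed HOXD13, a homeobox transcription factor. The genes were taken by symbol from a list of names: UGT2B10, UGT2B11, UGT2B15, UGT2B17, UGT2B28, SRD5A1, SRD5A3, HSD17B4 and AKR1C3. All 9 were found among the 19205 genes of the deposited tables. LNCaP is an established androgen-responsive human prostate cancer line. RNA-seq of polyadenylated RNA gave 2 libraries of cells carrying an empty lentiviral construct, which the labels call empty vehicle and EV, and 2 libraries of cells with lentiviral HOXD13. Both groups grew in serum-containing medium and went through infection and puromycin selection. The labels give neither the promoter that drove HOXD13 nor whether the cells were clones or pools, and they do not say that replicates came from separate cultures. The p-values therefore rest on the spread between libraries of a group, and that spread may be technical.

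Androgens drive growth and secretion of the prostate and are kept in balance by enzymes that make, interconvert and inactivate them. Testosterone is reduced to the more potent dihydrotestosterone by steroid 5-alpha-reductases, and hydroxysteroid dehydrogenases and aldo-keto reductases convert weak into potent androgens and back. UDP-glucuronosyltransferases of the UGT2B family end the signal by joining glucuronic acid to androgens and their metabolites, which makes them soluble for export. UGT2B15 and UGT2B17 are the main androgen-conjugating enzymes of the prostate, and androgens are known to lower the transcripts of both genes in LNCaP cells.

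Total expected counts ranged from 6881110 to 8530487 per library. HOXD13 was listed at 0 counts in both empty-vector libraries and at 88 and 104 counts in the HOXD13 libraries, as labelled. Counts differed between replicates by more than sampling noise (chi-square over degrees of freedom 1.57 and 1.76 for the 2 pairs). This excess was small, as the edgeR fit gave a common coefficient of variation of 2.70% beyond counting error. All 9 luminal prostate markers were detected, at a summed 7424 and 7464 CPM (counts scaled to library size) with the empty vector and 9723 and 9878 CPM with HOXD13. All 9 were tested, and 5 were called higher and 1 lower at an edgeR adjusted p under 0.05. Among all tested genes, 7.91% were called higher and 8.11% lower. Hepatocyte markers, examined because the liver also makes UGT2B enzymes, had all 5 genes detected at a summed 7.31 and 8.08 CPM against 8.22 and 9.67 CPM. Summed levels were 37.3 to 42.3 CPM for 4 fibroblast genes, 58.3 to 67.9 CPM for 5 leukocyte genes with CD3E at 0, and 4.37 to 8.97 CPM for 5 steroidogenic gland genes with NR5A1 at 0. The 2 basal genes measured summed to 69.2 and 69.5 CPM with the empty vector against 83.9 and 77.6 CPM, and KRT14 was called higher. The 4 endothelial genes summed to 24.9 and 26.2 against 35.7 and 35.9 CPM, and VWF was called higher. The part of these differences in the results on the 9 genes was not tested. In bulk RNA, fewer cells of a type and less RNA per cell cannot be told apart.

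The 5 UGT2B members lie in one cluster on chromosome 4, in the order UGT2B17, UGT2B15, UGT2B10, UGT2B11 and UGT2B28 in the RefSeq gene table, with other UGT2 genes among them. UGT2B15 and UGT2B17 are near-identical copies, as are UGT2B10, UGT2B11 and UGT2B28 among themselves, so the division of reads within each set is uncertain. Over the aligned coding sequence (GENCODE transcripts), UGT2B15 and UGT2B17 differ at 55 of 1590 bases (96.5% identity), and UGT2B11 and UGT2B28 at 47 of 1587 (97.0%). UGT2B10 differs from UGT2B11 at 79 and from UGT2B28 at 90 of 1584 aligned bases. Identity between a member of the first pair and one of the other 3 genes is 83.9% to 85.5%. To show how little separates a pair, the first stretch of 75 coding bases with the most differences is printed for each, with the differing bases in capitals. For the first pair it spans coding bases 361 to 435 and holds 10 differences.
UGT2B15: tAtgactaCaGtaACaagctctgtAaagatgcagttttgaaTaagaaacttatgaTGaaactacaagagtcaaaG
UGT2B17: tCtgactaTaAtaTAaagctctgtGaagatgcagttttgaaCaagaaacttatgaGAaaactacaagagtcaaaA
For the second pair it spans coding bases 19 to 93 and holds 5 differences.
UGT2B11: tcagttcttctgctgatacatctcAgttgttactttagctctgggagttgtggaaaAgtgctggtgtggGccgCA
UGT2B28: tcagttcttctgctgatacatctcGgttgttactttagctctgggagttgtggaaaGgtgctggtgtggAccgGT
Of all 50-base windows along each transcript, 27.8% of UGT2B15, 27.8% of UGT2B17, 31.7% of UGT2B10, 35.7% of UGT2B28 and 40.9% of UGT2B11 also occur in a transcript of another gene. The share is 1.12% for SRD5A1, 0.773% for SRD5A3 and 0 for HSD17B4. The read length is not given in the sources used here, so these windows only describe the overlap. The deposited counts show the same division: all 5 UGT2B members have fractional expected counts, which arise when a read is divided among genes.

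Promoter windows from RefSeq (250 bases before to 50 bases after the annotated start, build GRCh38.p14) were matched for UGT2B15, UGT2B10 and UGT2B11. Those of UGT2B15 and UGT2B11 are printed below because the copies also resemble each other where transcription starts. The window of UGT2B10 is not printed. The longest run of letters common to all 3 windows has 18 bases and is in capitals. It begins 56 bases before the start of UGT2B15 and 55 bases before those of UGT2B10 and UGT2B11. It occurs in 3 of 35116 promoter windows (0.0085%), those of these genes. The run was picked from these windows, so its presence in all 3 was fixed by the choice. A run of this length is rare in any other window, so the share is no measure of specificity. UGT2B17 and UGT2B28 had no matched window.
UGT2B15, chr4:68670603-68670902, minus strand: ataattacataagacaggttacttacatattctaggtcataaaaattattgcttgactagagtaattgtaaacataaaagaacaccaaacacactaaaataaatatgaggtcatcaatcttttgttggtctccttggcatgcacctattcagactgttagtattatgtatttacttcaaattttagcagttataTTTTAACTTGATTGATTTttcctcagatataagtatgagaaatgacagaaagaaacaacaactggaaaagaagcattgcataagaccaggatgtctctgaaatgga
UGT2B11, chr4:69214699-69214998, minus strand: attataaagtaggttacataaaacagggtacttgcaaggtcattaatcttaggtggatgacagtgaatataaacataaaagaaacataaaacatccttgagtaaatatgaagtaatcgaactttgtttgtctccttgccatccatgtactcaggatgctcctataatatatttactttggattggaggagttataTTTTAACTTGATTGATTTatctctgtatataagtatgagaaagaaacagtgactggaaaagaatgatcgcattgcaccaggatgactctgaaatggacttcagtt
The letters CAATAAA, a core preferred by HOX13 proteins, were searched on both strands. They are in none of these 3 windows and in 1406 of all 35116. HSD17B4 has 1 match to the HOX13 letters, on the other strand, 247 bases before its start. These matches are descriptions of letters only.

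Transcripts of the androgen-conjugating UGT2B enzymes were lower with HOXD13, while HSD17B4 was slightly higher and the reductases SRD5A1 and SRD5A3 were not called. Of the 9 genes, 7 had enough counts to be tested, 4 fell and 1 rose at an adjusted p under 0.05 (edgeR quasi-likelihood test, Benjamini-Hochberg over all 14112 tested genes). Among all tested genes, 8.11% were called lower and 7.91% higher. One of the 4, UGT2B28, entered the test only through the empty-vector group, where it was high, so its call is no support, and without it 3 of 6 tested genes fell. The genes that fell are all UGT2B genes, they share reads, and so they are not independent measurements.

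**Figure D1:**
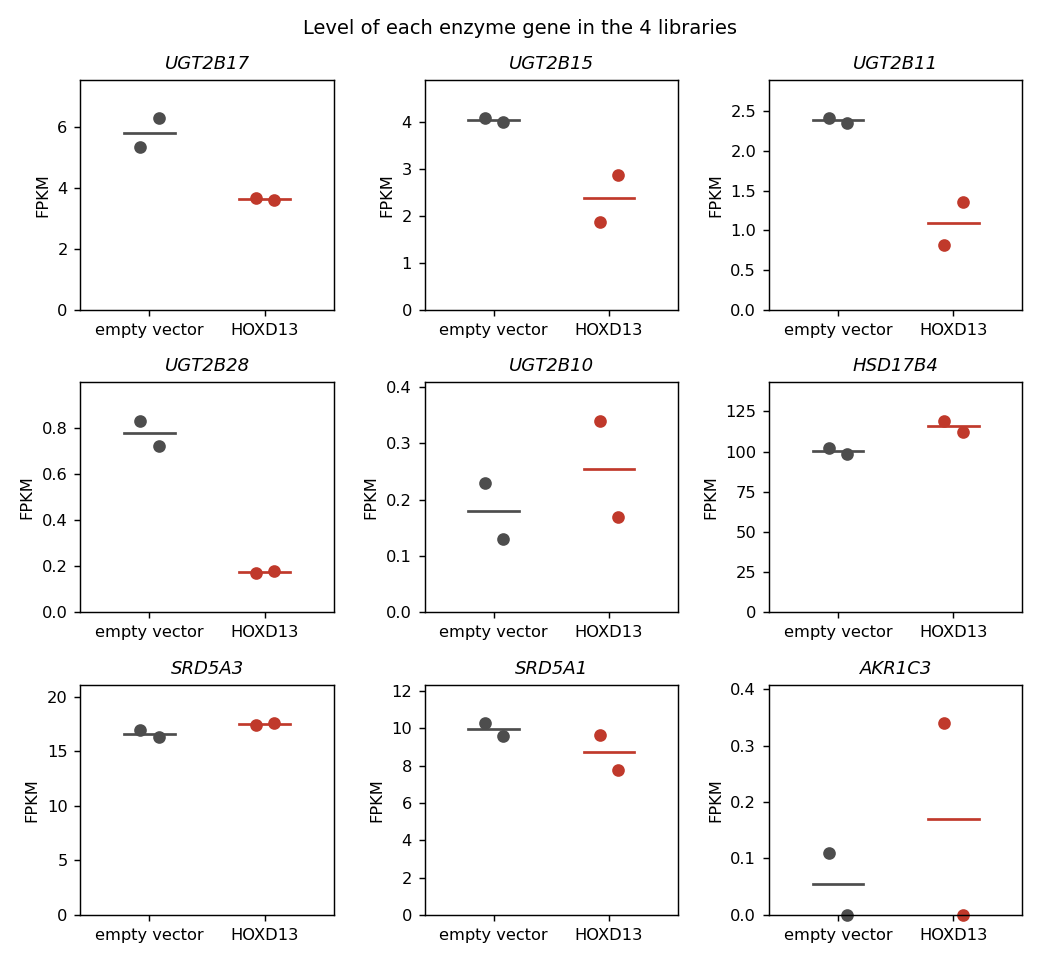
Level of each gene in the 4 libraries, in FPKM (the authors' fragment counts scaled to gene length and library size) on linear axes that start at 0. Points are libraries and lines are means of 2. UGT2B17, UGT2B15, UGT2B11 and UGT2B28 are lower in both HOXD13 libraries than in both empty-vector libraries, HSD17B4 and SRD5A3 are higher in both, and the groups overlap for UGT2B10, SRD5A1 and AKR1C3.

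UGT2B17 (gene ID 7367), which conjugates testosterone and dihydrotestosterone, was at 5.34 and 6.29 FPKM in the empty-vector libraries and at 3.68 and 3.60 FPKM in the HOXD13 libraries. The groups did not overlap, and 24.8% of all tested genes had both HOXD13 values under both control values. The means were 5.82 ± 0.672 and 3.64 ± 0.0566 FPKM (SD, n = 2), and the log2 fold change was -0.69 (SE 0.191, 95% interval -1.08 to -0.30, edgeR adjusted p = 0.0116). Leaving out empty-vector library 2 ended the call (adjusted p = 0.134).

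UGT2B15 (gene ID 7366), which acts on dihydrotestosterone and on its metabolite androstanediol, was at 4.09 and 4.01 FPKM with the empty vector and at 1.88 and 2.88 FPKM with HOXD13. The groups did not overlap, and the HOXD13 libraries differed from each other by more than the empty-vector libraries did. The means were 4.05 ± 0.0566 and 2.38 ± 0.707 FPKM (SD, n = 2), with a log2 fold change of -0.79 (SE 0.238, edgeR adjusted p = 0.0202). Leaving out HOXD13 library 1 moved the value to -0.51 and ended the call (adjusted p = 0.260), as did leaving out empty-vector library 1 (0.0901) or 2 (0.0553).

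UGT2B11 (gene ID 10720), a copy for which fatty acid metabolites are better known substrates than androgens, was at 2.41 and 2.35 FPKM with the empty vector. It was at 0.82 and 1.36 FPKM with HOXD13, again without overlap. The expected counts behind these levels were 31.6 and 27.7 against 11.97 and 19.4. The log2 fold change was -1.17 (SE 0.366, 95% interval -1.92 to -0.43, edgeR adjusted p = 0.0250). The call ended when empty-vector library 1 (adjusted p = 0.128) or 2 (0.0997) or HOXD13 library 1 (0.229) was left out. The fold change was -0.71 on log2(FPKM + 1) and -1.56 without HOXD13 library 2.

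UGT2B28 (gene ID 54490), which is known to conjugate steroids, was at 0.83 and 0.72 FPKM with the empty vector and at 0.17 and 0.18 FPKM with HOXD13. These levels rest on 11.03 and 8.74 against 2.66 and 2.71 expected counts, so the replicates of each group lay close together at very low depth. UGT2B28 passed the filter on low counts in the empty-vector libraries alone, so it entered the test only through the group where it was high. The fitted log2 fold change was -1.92 with a 95% interval of -3.25 to -0.59 (edgeR adjusted p = 0.0413). The call was lost without any 1 of the 4 libraries (adjusted p = 0.155 to 0.247), without the filter (0.0758) and with the replicate number as a block (0.0505).

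UGT2B10 (gene ID 7365), better known for N-glucuronidation of amines than for androgens, did not pass the filter. It had 4.35 and 2.27 expected counts with the empty vector and 7.34 and 3.46 with HOXD13, or 0.23 and 0.13 against 0.34 and 0.17 FPKM. The groups overlapped, and a difference was not detectable at this depth.

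Summed counts do not depend on how reads were divided within the sum. Summed FPKM can depend on it, since each copy is scaled to its own length. UGT2B15 and UGT2B17 together had 157 and 153 expected counts with the empty vector and 102 and 117 with HOXD13, and their summed level went from 9.43 and 10.3 to 5.56 and 6.48 FPKM. The sum fell by 39.7% (log2 fold change -0.73, SE 0.143, 95% interval -1.02 to -0.44, edgeR adjusted p = 0.000418). UGT2B10, UGT2B11 and UGT2B28 together went from 3.47 and 3.20 to 1.33 and 1.71 FPKM, a log2 fold change of -1.06 (SE 0.304, edgeR adjusted p = 0.0137). This second call ended when empty-vector library 1 (adjusted p = 0.103) or HOXD13 library 1 (0.0941) was left out.

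All 5 members together had 204 and 192 expected counts with the empty vector and 124 and 143 with HOXD13. Scaled to library size this is 26.6 and 27.9 CPM against 14.5 and 17.2 CPM, with means of 27.2 ± 0.918 and 15.8 ± 1.85 CPM (SD, n = 2). The groups stood apart by more than the spread within either. The log2 fold change of the sum was -0.80 (SE 0.129, 95% interval -1.06 to -0.53, edgeR adjusted p = 3.38e-05). With UGT2B4, the sixth UGT2B row of the table, added, it was -0.81 (adjusted p = 3.04e-05). The sum over UGT2B15 and UGT2B17 and the sum over all 5 passed the threshold under each of 11 alternatives, with adjusted p of at most 0.0326 and 0.0242. The DESeq2 Wald test gave no adjusted p for them.

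**Figure D2:**
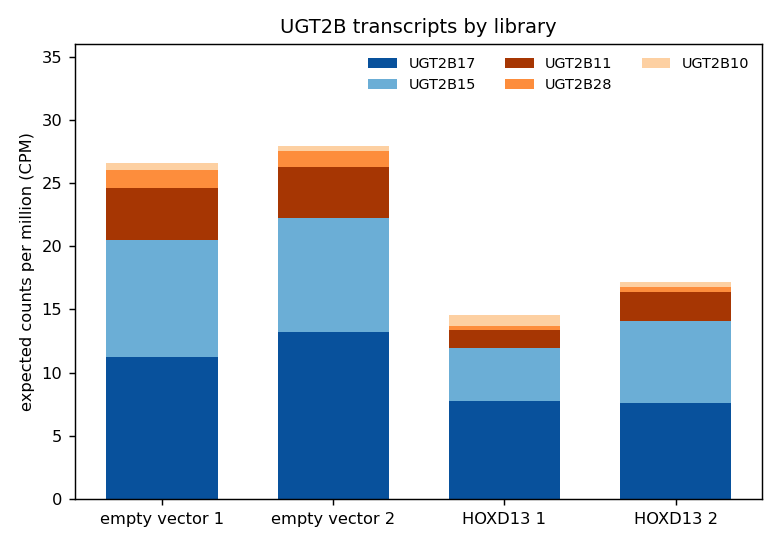
Expected counts scaled to library size (CPM) of the 5 UGT2B members in each library, stacked by gene on an axis that starts at 0. The totals are 26.6 and 27.9 CPM in the empty-vector libraries and 14.5 and 17.2 CPM in the HOXD13 libraries. UGT2B17 and UGT2B15 make up most of each bar.

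Most UGT2B counts belonged to one pair in every library. UGT2B15 and UGT2B17 held 76.9% and 79.8% of the 5-member counts with the empty vector and 82.3% and 82.1% with HOXD13, a small difference that was not tested. Within that pair, UGT2B15 took 45.2% of the counts in empty-vector replicate 1 (95% Wilson interval 37.6% to 53.0%) and 40.5% in replicate 2 (33.1% to 48.4%). It took 35.3% in HOXD13 replicate 1 (26.7% to 44.9%) and 46.2% in HOXD13 replicate 2 (37.4% to 55.2%). The 4 intervals overlap, so a shift between the copies was not detectable at this depth. They cover counting error only and leave out the uncertainty of dividing shared reads.

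Fold changes varied with expression level. Among 10 equal bins by expression, the lowest had a median log2 fold change of 0.15, the second 0.13 and the third 0.07. UGT2B15 lies in the second bin, where 8 of 1411 genes had a fold change as low or lower. UGT2B17 lies in the third, where 15 of 1411 did. UGT2B11 lies in the lowest bin, where 22 of 1412 did. SRD5A1 lies in the fifth bin, where 149 of 1411 genes had a fold change as low or lower. For SRD5A3, in the eighth bin, it was 992 of 1411, and for HSD17B4, in the top bin, 1220 of 1412.

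HSD17B4 (gene ID 3295), a peroxisomal enzyme of fatty acid beta-oxidation that can also oxidise 17-beta-hydroxysteroids, was by far the most abundant of the 9. It was at 102 and 98.7 FPKM with the empty vector and at 119 and 112 FPKM with HOXD13. The groups did not overlap, and 29.3% of all tested genes had both HOXD13 values over both control values. The means were 101 ± 2.62 and 116 ± 4.93 FPKM (SD, n = 2). The log2 fold change was 0.19 (SE 0.0407, 95% interval 0.11 to 0.27, edgeR adjusted p = 0.00123). This 1.14-fold rise rests on 3990 counts with the empty vector and 5325 with HOXD13. The call was kept without each library in turn (adjusted p of at most 0.0321) and lost with limma on log2(FPKM + 1) (0.0657).

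SRD5A1 (gene ID 6715), the 5-alpha-reductase that predominates in prostate cancer cells, was at 10.3 and 9.60 FPKM with the empty vector and at 9.65 and 7.77 FPKM with HOXD13. The groups overlapped, and the lowest value came from HOXD13 library 2. The log2 fold change was -0.21 (SE 0.130, edgeR adjusted p = 0.320), with a 95% interval from -0.47 to 0.06. It was -0.06 when HOXD13 library 2 was left out and -0.37 when HOXD13 library 1 was, neither called.

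SRD5A3 (gene ID 79644), which reduces polyprenol to dolichol for N-glycosylation and was also described as a 5-alpha-reductase, was at 16.9 and 16.3 FPKM with the empty vector. With HOXD13 it was at 17.4 and 17.6 FPKM, above both empty-vector libraries by a small margin. The log2 fold change of 0.06 (SE 0.0697, edgeR adjusted p = 0.649) was not called, and its 95% interval ran from -0.08 to 0.20. Its counts were fractional. The antisense gene SRD5A3-AS1 had 2 to 7.81 counts per library, and whether counting used strand is not given in the sources used here.

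AKR1C3 (gene ID 8644), which converts androstenedione to testosterone, was close to undetected, with 1 and 0 counts in the control libraries and 3 and 0 in the HOXD13 libraries. A count of 0 allows up to 3 counts, or 0.436 CPM in empty-vector library 2 and 0.360 CPM in HOXD13 library 2. The related AKR1C1 and AKR1C2 were as sparse, and the 3 genes together had 7 and 1 counts against 8 and 0. Neither the gene nor the sum was tested. The coding sequence of AKR1C3 is 91.8% identical to that of AKR1C1 and 91.2% to that of AKR1C2.

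**Figure D3:**
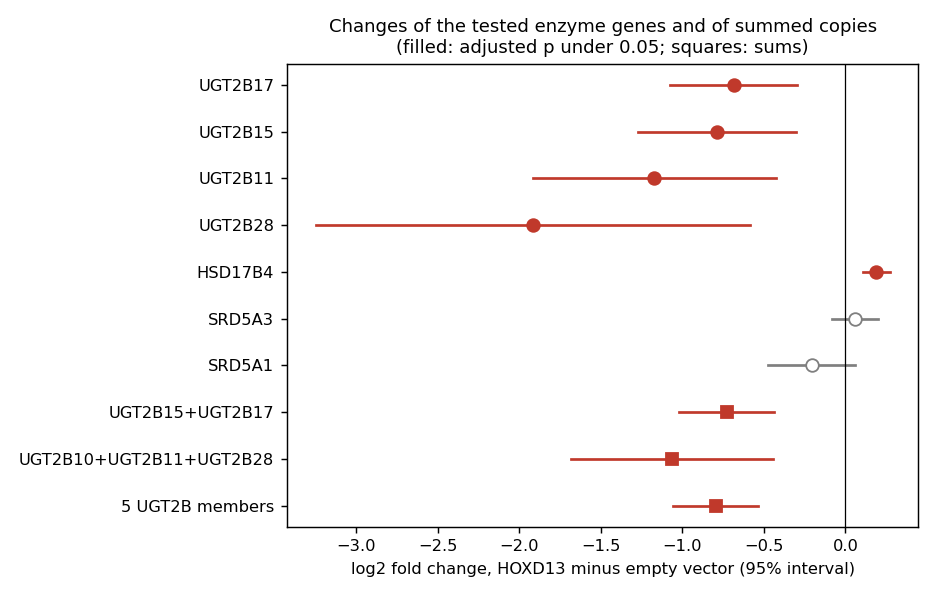
Log2 fold change, HOXD13 minus empty vector, with 95% intervals from the edgeR fit, for the 7 tested genes (circles) and for sums of UGT2B copies (squares). Filled symbols passed an adjusted p under 0.05. The interval of the 5-member UGT2B sum, -1.06 to -0.53, is narrower than that of any single copy and lies below 0, while those of SRD5A3 and SRD5A1 include 0.

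In order of level per length, averaged over the 4 libraries, the genes ran from HSD17B4 (108 FPKM) through SRD5A3 (17.04), SRD5A1 (9.33), UGT2B17 (4.73), UGT2B15 (3.22), UGT2B11 (1.74), UGT2B28 (0.475) and UGT2B10 (0.218) to AKR1C3 (0.113). HSD17B4 held rank 595 among all 19205 genes and UGT2B17 rank 9997. HSD17B4, SRD5A3, SRD5A1 and UGT2B17 are separated from each other in every library. From UGT2B17 down, each gene's range over the 4 libraries, with both groups pooled, overlaps that of the next. Within each library, UGT2B17 still lay above UGT2B15, UGT2B15 above UGT2B11 and UGT2B11 above UGT2B28.

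Calls of other genes around androgen metabolism were counted beside those of all tested genes. In 11 lists with 120 genes, 71 were tested, 11 rose, 3 fell and 57 were not called. That is 15.5% higher and 4.23% lower, against 7.91% and 8.11% of all tested genes, or 19.7% against 16.0% in either direction. The difference between these shares was not tested. The median log2 fold change was 0.02 against 0.00. The called members of 10 of the lists follow, all with edgeR adjusted p-values.

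Glucuronidation needs UDP-glucuronate as well as the transferases. Of 8 tested genes of its supply and of glucuronide cleavage, UGDH, which oxidises UDP-glucose to UDP-glucuronate, fell from 21.8 and 21.7 FPKM to 18.7 and 19.2 FPKM (log2 fold change -0.21, adjusted p = 0.0418). PGM1, which interconverts glucose phosphates upstream of UDP-glucose, rose from 21.5 and 20.6 to 25.0 and 27.2 FPKM (0.30, adjusted p = 0.00747). The remaining 6 were not called, among them UGP2, which makes UDP-glucose, and the glucuronidase gene GUSB. The UGDH call was lost without each of the 4 libraries in turn (adjusted p = 0.0606 to 0.172). PGM1 lost its call when empty-vector library 2 (0.0578) or HOXD13 library 2 (0.0914) was left out. Of 17 other glucuronosyltransferase genes, 9 had a row and 1 was tested. It was UGT8, which transfers galactose to ceramide, and it rose from 18.2 and 19.4 to 23.7 and 21.0 FPKM (0.23, adjusted p = 0.0389). UGT8 lost its call when empty-vector library 1 (0.286) or HOXD13 library 1 (0.360) was left out. The UGT1A6 row held 0 to 2 counts per library, and UGT2B7 had no row in the deposited table of all libraries.

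Among 11 tested 17-beta-hydroxysteroid dehydrogenase genes besides HSD17B4, HSD17B12, which works in fatty acid elongation, rose from 12.4 and 11.4 to 15.0 and 14.3 FPKM (log2 fold change 0.28, adjusted p = 0.0483). HSD17B10, a mitochondrial enzyme, fell from 94.9 and 102 to 86.4 and 85.8 FPKM (-0.20, adjusted p = 0.0260). The HSD17B12 call was lost without each library in turn (adjusted p = 0.0666 to 0.250). The HSD17B10 call was lost when empty-vector library 2 (0.257), HOXD13 library 1 (0.0668) or HOXD13 library 2 (0.0614) was left out. HSD17B3, the testosterone-forming enzyme of the testis, and HSD17B2, which inactivates testosterone, had 2 and 0 counts in all. Of 6 tested genes of other reductases and dolichol synthesis, TECR, an enoyl reductase of fatty acid elongation, rose (0.19, adjusted p = 0.0240). SRD5A2, the main 5-alpha-reductase of normal prostate, had 1 count in all 4 libraries. TECR lost its call when empty-vector library 1 (0.310) or HOXD13 library 2 (0.222) was left out. None of 3 tested aldo-keto reductases was called, and the most abundant, AKR1A1, was at 115 and 123 FPKM against 113 and 110 FPKM (-0.11, adjusted p = 0.140).

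HSD17B4 works in peroxisomal beta-oxidation, where 2 of 16 other tested genes rose and 14 were not called. The carnitine acetyltransferase gene CRAT rose from 25.3 and 24.0 to 30.7 and 29.9 FPKM (log2 fold change 0.28, adjusted p = 0.00357). AMACR, a racemase of branched-chain fatty acids that is abundant in prostate cancer, rose from 17.6 and 19.0 to 21.4 and 21.2 FPKM (0.22, adjusted p = 0.0360). The CRAT call held in each of 12 alternatives. AMACR lost its call when empty-vector library 1 (0.370), HOXD13 library 1 (0.0979) or HOXD13 library 2 (0.0731) was left out. The median over the 16 genes was 0.01, against 0.19 for HSD17B4.

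Of 11 tested genes of steroid synthesis and electron supply, 2 rose. HSD11B2, which inactivates cortisol, rose from 23.3 and 24.3 to 32.3 and 32.4 FPKM (log2 fold change 0.43, adjusted p = 0.000236), and its call held in each of 12 alternatives. H6PD, which feeds NADPH to the related enzyme HSD11B1, rose from 20.5 and 22.1 to 25.3 and 25.5 FPKM (0.24, adjusted p = 0.000218). H6PD lost its call with limma on log2(FPKM + 1) (adjusted p = 0.0798) and on log2(FPKM + 0.1) (0.0793). In sulfation, where 6 genes were tested, PAPSS1, which makes the sulfate donor, fell from 22.8 and 22.9 to 19.0 and 18.8 FPKM (-0.29, adjusted p = 0.0113). PAPSS1 lost its call when empty-vector library 2 (0.0551) was left out. Of 4 tested transporters, ABCC4, an exporter of conjugated steroids, rose from 33.2 and 33.2 to 39.3 and 38.5 FPKM (0.21, adjusted p = 0.000870), and ABCC1 rose as well (0.12, adjusted p = 0.0413). ABCC4 lost its call with limma on log2(FPKM + 1) (adjusted p = 0.0577) and on log2(FPKM + 0.1) (0.0573). ABCC1 lost its call when empty-vector library 1 (0.520, log2 fold change 0.07) or HOXD13 library 1 (0.0935) was left out. Neither of 2 tested steroid-hydroxylating cytochrome P450 genes was called, with CYP3A5 at 1.11 and 0.65 against 1.18 and 0.78 FPKM.

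**Figure D4:**
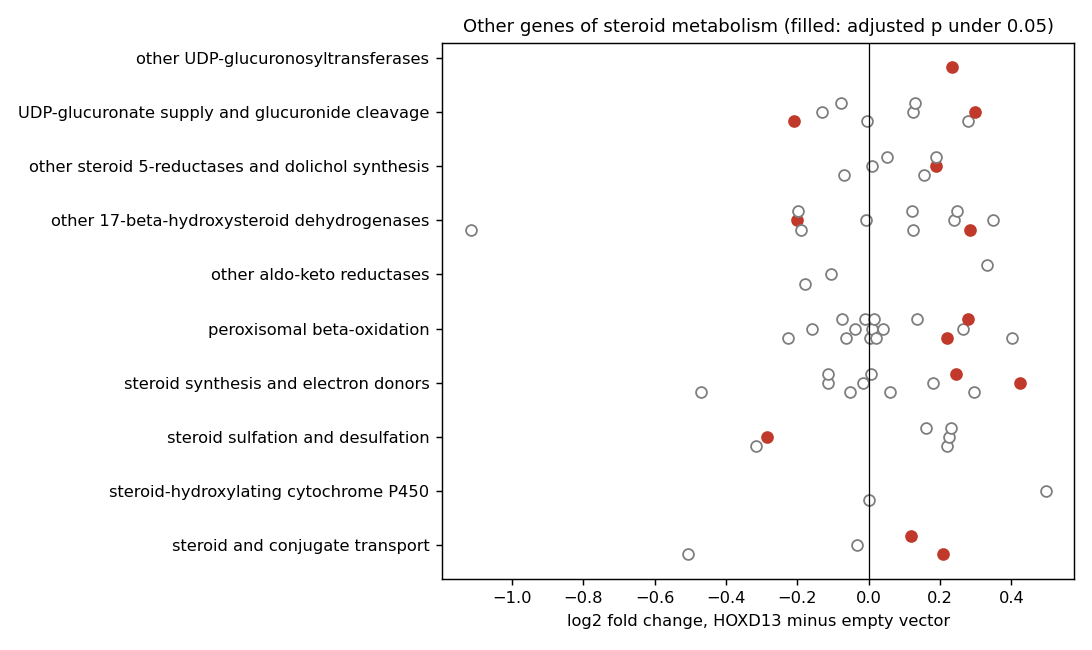
Log2 fold change, HOXD13 minus empty vector, of 68 tested genes in 10 lists around androgen metabolism, 1 row per list, spread vertically for legibility. Filled points passed an adjusted p under 0.05, and 10 of these lie to the right of 0 and 3 to the left. All called values lie between -0.29 and 0.43, nearer to 0 than the -0.80 of the 5-member UGT2B sum. This does not hold for every open point. HSD17B6, sparse in all libraries and not called (edgeR adjusted p = 0.128), lies at -1.12, further from 0 than that sum.

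Among genes averaging 5 FPKM or more, those whose log2 CPM profile over the 4 libraries lay closest to that of UGT2B15 plus UGT2B17 were LAMA3, HNRNPH2 and PPAN. Their Euclidean distances were 0.12, 0.15 and 0.20 on the log2 scale. LAMA3 went from 10.4 and 11.2 to 6.92 and 6.72 FPKM, HNRNPH2 from 15.5 and 17.5 to 10.4 and 10.8 FPKM, and PPAN from 27.6 and 28.1 to 18.4 and 19.97 FPKM. HNRNPH2 and PPAN had fractional counts, so their levels also depend on how shared reads were divided. With 4 libraries in 2 groups, such a likeness mostly records a fall of the same size.

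**Figure D5:**
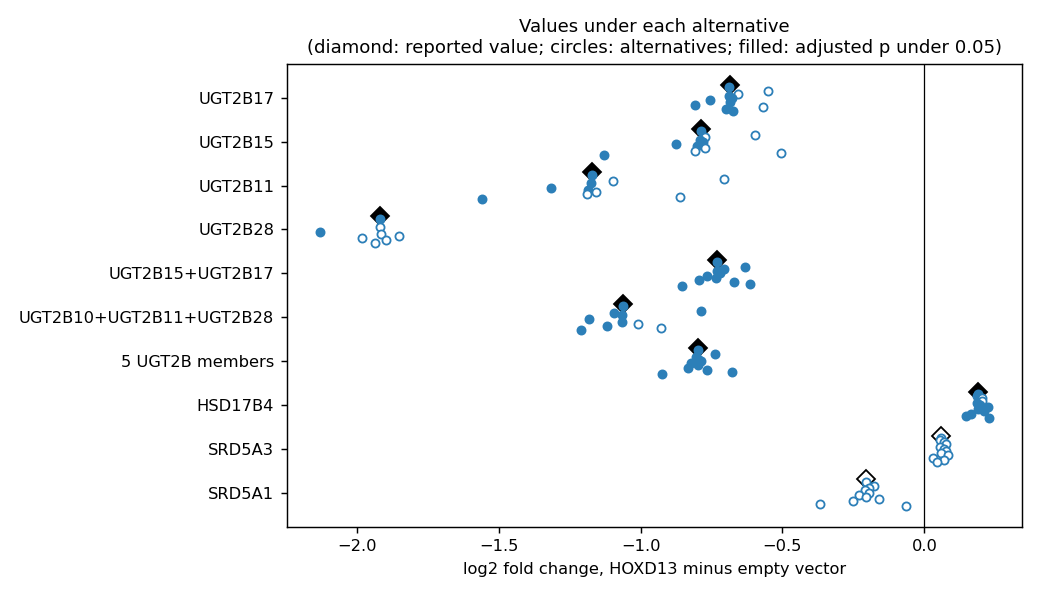
Log2 fold change, HOXD13 minus empty vector, of genes and summed copies as reported (diamonds) and under the alternatives that gave a value (circles). Filled symbols passed an adjusted p under 0.05. The sums UGT2B15+UGT2B17 and 5 UGT2B members stay filled throughout, at -0.85 to -0.61 and -0.92 to -0.68, while single copies do not.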

How the data were processed

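Reads were processed by the authors with Bowtie2 and RSEM, per the submitters' processing notes, which name hg18 and hg19. Tool versions are not given in the sources used, nor is the step each build served. Each library's table holds RSEM expected counts and FPKM per gene, per the file headers, and the deposited FPKM were the same in both kinds of table. A gene missing from a library's table was given 0.

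Expected counts were rounded and tested with edgeR 4.0.16 (R 4.3.3), quasi-likelihood, robust, TMM, filterByExpr, without a block, HOXD13 minus empty vector, with Benjamini-Hochberg adjustment over 14112 genes. The standard error is the absolute log2 fold change over the square root of F. TMM factors were 0.995 to 1.01. Sums of copies replaced those copies in refits. FPKM values are as deposited, and CPM are expected counts scaled to library size before TMM. Alternatives used DESeq2 1.42.0 and limma 3.58.1.

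The genes and lists were chosen with earlier results of these data known. Named genes are the 9 members and their sums, up to 4 called genes per list by size of change or else the most abundant tested one, and the 3 most alike in profile. Others, such as SRD5A2, HSD17B3, UGP2 and GUSB, were chosen after their values were seen. Genes of 1 list are not reported here. Groups of 2 permit no permutation test below 0.05. Coding sequences came from GENCODE 29 and were aligned with Biopython 1.88.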

Additional observations from a re-analysis of the deposited data

How the results depend on the processing

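The 5-member UGT2B sum, the sum with UGT2B4 and UGT2B15 plus UGT2B17 kept their direction and call in 11 of 11 alternatives each. Without each library in turn they ranged from -0.92 to -0.68, -0.96 to -0.66 and -0.85 to -0.61. UGT2B10, UGT2B11 and UGT2B28 summed ranged from -1.21 to -0.93, losing the call at -1.01 (without empty-vector library 1) and -0.93 (without HOXD13 library 1); it and UGT2B11 and UGT2B28 had no value at a mean of at least 50 counts, and UGT2B28 none with limma. The number of member genes called lower was 4 and became 0 with DESeq2 Wald (which gave no adjusted p for the UGT2B genes and SRD5A1), limma on log2(FPKM + 1) or log2(FPKM + 0.1) and an adjusted p under 0.01, 2 at a mean of at least 50 counts, and 0 to 3 without each library. Member genes called higher were 1, and 0 with limma at either pseudocount. Over all genes, 1116 higher and 1144 lower became 468 and 599 (DESeq2), 398 and 261 (limma, pseudocount 1), 382 and 265 (0.1) and 647 and 633 (under 0.01). Without each library they were 751 to 927 higher and 714 to 1064 lower. Over the lists, 11 higher and 3 lower became 5 and 0 (DESeq2), 2 and 0 (limma, both pseudocounts) and 5 and 0 (under 0.01), with 1 lower under cyclic loess, and 6 to 9 higher and 0 to 2 lower without each library. CYP3A5, at 0.00, changed sign in 6 alternatives (-3.26e-05, -0.00121, -0.15, -0.00152, -0.12, -0.33) and reached 0.27 in another, never called. Causes were not tested. With the replicate number as a block the 5-member sum was -0.80 (adjusted p = 3.71e-06), and UGT2B28 was the member whose call it ended. Same-numbered libraries deviated together only weakly (r = 0.07 across genes), and the labels do not say that numbers pair samples. Limma also ended the calls of HSD17B4, UGT2B17, UGT2B15 and UGT2B11 (adjusted p = 0.0548 to 0.110). Depth limits UGT2B28, UGT2B10 and AKR1C3.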

Other observations

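Several genes of steroid synthesis, named after their values were seen, were sparse in these cells, while others of the same list were not: TSPO was at 98.0 to 104 FPKM and CYB5A at 161 to 172 FPKM. Of the genes that follow, STAR, CYP11A1 and HSD17B6 were tested and not called, and CYP17A1, HSD3B1 and CYP19A1 had too few counts to be tested. STAR, which brings cholesterol into mitochondria, was at 1.2 and 1.72 FPKM with the empty vector and at 1.01 and 2.61 FPKM with HOXD13. CYP11A1, which cleaves the cholesterol side chain, was at 0.81 and 1.58 against 0.85 and 0.87 FPKM. CYP17A1, needed to make androgens from pregnane steroids, was listed at 0 in 3 libraries and had 1 count in HOXD13 library 2. HSD3B1, which makes androstenedione, had 6 and 0 counts in the control libraries against 2 and 3.81. CYP19A1, the aromatase gene, was listed at 0 in all 4. HSD17B6, which belongs to the list of 17-beta-hydroxysteroid dehydrogenases instead, can oxidise androstanediol back to dihydrotestosterone. It was at 1.22 and 1.36 FPKM with the empty vector and at 0.55 and 0.64 FPKM with HOXD13, on 14, 14, 7 and 8 counts. Its log2 fold change of -1.12 was not called (edgeR adjusted p = 0.128).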
